A study of Homo sapiens with 6 samples.

Results

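The 10 genes POLR2A to POLR2J, which encode 10 of the 12 subunits of RNA polymerase II (RNAPII), were described in A673 and SKNMC cells, 2 established Ewing sarcoma cell lines. They were taken by symbol, as the rows named POLR2A, POLR2B, POLR2C, POLR2D, POLR2E, POLR2F, POLR2G, POLR2H, POLR2I and POLR2J among 27420 genes, and each was listed once. The set was chosen with earlier results of these data known. Cells had been exposed for 6 h to THZ1, a covalent inhibitor of the kinase CDK7, at a dose of 50 nM or 200 nM, or to its vehicle DMSO alone. Every one of the 6 conditions was represented by 1 library, so no difference within a line was tested. A test over both lines, with the line as a block, is given after the values. The comparisons ask what happened to the transcripts of the polymerase itself when the kinase that phosphorylates it was inhibited. Levels are FPKM, read fragments scaled by transcript length and library, which can be compared between genes because they are scaled by length. A log2 fold change is the log2 ratio of FPKM + 1, which understates the change of low genes, and genes above 1 FPKM in the DMSO library of a line are called active.

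RNAPII transcribes the protein-coding genes of the nucleus. POLR2A (RPB1) and POLR2B (RPB2) form the catalytic centre, and POLR2A carries the C-terminal domain (CTD), a tail of repeats that CDK7 phosphorylates on serine when transcription starts. POLR2C (RPB3) and POLR2J (RPB11) pair as the platform on which the enzyme is assembled, while POLR2D (RPB4) and POLR2G (RPB7) form a stalk beside the exit of the RNA. POLR2E (RPB5), POLR2F (RPB6) and POLR2H (RPB8) are also subunits of RNA polymerases I and III, which make ribosomal RNA and transfer RNA. POLR2I (RPB9) sits at the jaw of the enzyme and acts in the accuracy of transcription.

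The genes differ widely in size. POLR2A spans 30250 bp on the plus strand of chromosome 17 (hg19, chr17:7387684-7417933), with 30 exons and a reference transcript of 6304 bases. POLR2B covers 53448 bp of chromosome 4 (chr4:57843887-57897334) in 25 exons. POLR2D lies on the minus strand of chromosome 2 (chr2:128603839-128615731) in 4 exons, with a long transcript of 5038 bases. POLR2I is the shortest, with a span of 1638 bp on chromosome 19 (chr19:36604611-36606248) and a transcript of 443 bases. POLR2C (chr16:57496298-57505922), POLR2F (chr22:38348613-38437922), POLR2G (chr11:62529015-62534182) and POLR2H (chr3:184079505-184086384) are on the plus strand, and POLR2E (chr19:1086593-1095598) and POLR2J (chr7:102113564-102119354) on the minus strand. The span of POLR2F overlaps SOX10 on the other strand over 16738 bp, and SOX10 was at 0.210 FPKM or less. Exons and transcript lengths are those of the canonical transcripts in GENCODE release 44 on GRCh37, the same build as hg19.

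Promoters, from 250 bases before to 50 after the start of the gene, were found in RefSeq (GRCh38.p14) for 7 of the 10 genes, and not for POLR2G, POLR2I and POLR2J. Those of POLR2A and POLR2D are shown because these genes lay furthest from their DMSO level, on opposite sides, and those of POLR2B and POLR2E because these stayed near it at 50 nM. They lie at chr17:7484116-7484415 (plus strand, POLR2A), chr4:56978646-56978945 (plus strand, POLR2B), chr2:127858106-127858405 (minus strand, POLR2D) and chr19:1095326-1095625 (minus strand, POLR2E). Sequences run 5′ to 3′ on the strand of the gene. Capitals mark matches on either strand to the GC box GGGCGG or to the ETS core, spelled CCGGAAG, and no match overlapped another.
POLR2A: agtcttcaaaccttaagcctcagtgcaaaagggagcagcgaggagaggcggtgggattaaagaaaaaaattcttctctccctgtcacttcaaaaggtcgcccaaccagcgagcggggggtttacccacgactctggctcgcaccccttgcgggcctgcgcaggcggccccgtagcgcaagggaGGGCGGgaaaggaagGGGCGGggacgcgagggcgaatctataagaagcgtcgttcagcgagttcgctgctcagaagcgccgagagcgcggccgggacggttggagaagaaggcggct
POLR2B: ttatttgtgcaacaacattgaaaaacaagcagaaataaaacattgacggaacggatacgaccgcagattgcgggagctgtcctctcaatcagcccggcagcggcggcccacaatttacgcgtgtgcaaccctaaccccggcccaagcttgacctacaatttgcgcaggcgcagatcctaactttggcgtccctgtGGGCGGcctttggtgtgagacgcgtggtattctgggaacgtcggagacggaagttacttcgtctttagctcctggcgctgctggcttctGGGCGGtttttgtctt
POLR2D: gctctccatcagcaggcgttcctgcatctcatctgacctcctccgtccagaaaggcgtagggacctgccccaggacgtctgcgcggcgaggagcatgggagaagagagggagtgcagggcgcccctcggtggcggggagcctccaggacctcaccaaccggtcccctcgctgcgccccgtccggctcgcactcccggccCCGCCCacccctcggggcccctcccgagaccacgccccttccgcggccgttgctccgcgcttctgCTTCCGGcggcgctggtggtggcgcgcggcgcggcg
POLR2E: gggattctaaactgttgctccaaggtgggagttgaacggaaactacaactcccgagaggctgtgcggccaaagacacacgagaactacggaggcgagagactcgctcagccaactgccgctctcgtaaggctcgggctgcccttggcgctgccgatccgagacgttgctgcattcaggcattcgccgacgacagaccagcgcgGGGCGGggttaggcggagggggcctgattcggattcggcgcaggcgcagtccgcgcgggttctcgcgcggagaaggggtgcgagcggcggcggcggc

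All 4 printed windows held a GC box, which 45.0% of 35093 promoters of the same length hold, with 2 matches each in POLR2A and POLR2B. Of the windows not printed, those of POLR2H held a GC box, and those of POLR2C and POLR2F held none. An ETS core was found in the windows of POLR2C, POLR2D and POLR2F and in 10.3% of all promoters. The TATA box (TATAAA) was in none of the windows of the 7 genes and in 11.5% of all promoters. The same held for the CCAAT box, present in 34.6% of all promoters, for the E-box (CACGTG), present in 7.26%, and for a pair of GGAA repeats (GGAAGGAA), present in 3.67%. The GC content was 61.3% for POLR2A, 54.0% for POLR2B, 65.7% for POLR2E and 73.7% for POLR2D, against a median of 58.7%. The GC box, the only motif of this set found in the POLR2A window, was thus also in the other 3 printed windows. A match describes the sequence and is not evidence of binding.

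In DMSO, all 10 subunits were well expressed in both lines. Their levels ran from 30.3 FPKM (POLR2J) to 125.2 FPKM (POLR2E) in A673, a 4.13-fold range, and from 29.2 FPKM (POLR2A) to 95.2 FPKM (POLR2G) in SKNMC, a 3.26-fold range. POLR2A was therefore among the least abundant subunit transcripts, 7th of 10 in A673 and the lowest in SKNMC. In A673 the order in DMSO was POLR2E, POLR2G, POLR2F, POLR2C, POLR2H, POLR2D, POLR2A, POLR2B, POLR2I and POLR2J. In SKNMC it was POLR2G, POLR2E, POLR2B, POLR2F, POLR2H, POLR2J, POLR2I, POLR2C, POLR2D and POLR2A. Without replicates no pair of neighbours in these orders could be told apart. The summed level of the 10 genes was 602.9 FPKM in A673 and 618.4 FPKM in SKNMC, which is 0.131% and 0.134% of all listed FPKM.

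The lines differed most in POLR2B, at 36.5 FPKM in A673 and 88.9 FPKM in SKNMC with DMSO, a log2 difference (A673 against SKNMC) of -1.26. It was the 1 subunit lower by at least 2-fold in A673, where 15.1% of the 12385 genes above 1 FPKM in either DMSO library were lower by as much. None was higher by 2-fold, against 8.43% of those genes. With ribosomal protein scaling POLR2B no longer passed 2-fold, and 1 subunit was higher by 2-fold in A673. The shares of genes under that scaling are not given here. POLR2C had the next largest difference and was higher in A673, at 67.7 FPKM against 35.4 FPKM, a log2 difference of 0.92. POLR2F differed least, with 80.0 and 80.5 FPKM. The gap in POLR2B was present in all 3 pairs of libraries, with 40.2 FPKM in A673 against 98.9 FPKM at the low dose of THZ1 and 29.6 against 79.4 FPKM at the high dose. POLR2B overlaps NOA1 over 1103 bp and IGFBP7 over 397 bp, both on the other strand. With DMSO, NOA1 was at 4.45 FPKM in A673 and 11.0 FPKM in SKNMC, and IGFBP7 at 1.66 and 21.5 FPKM. Whether reads were shared between these genes and POLR2B was not tested.

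**Figure D1:**
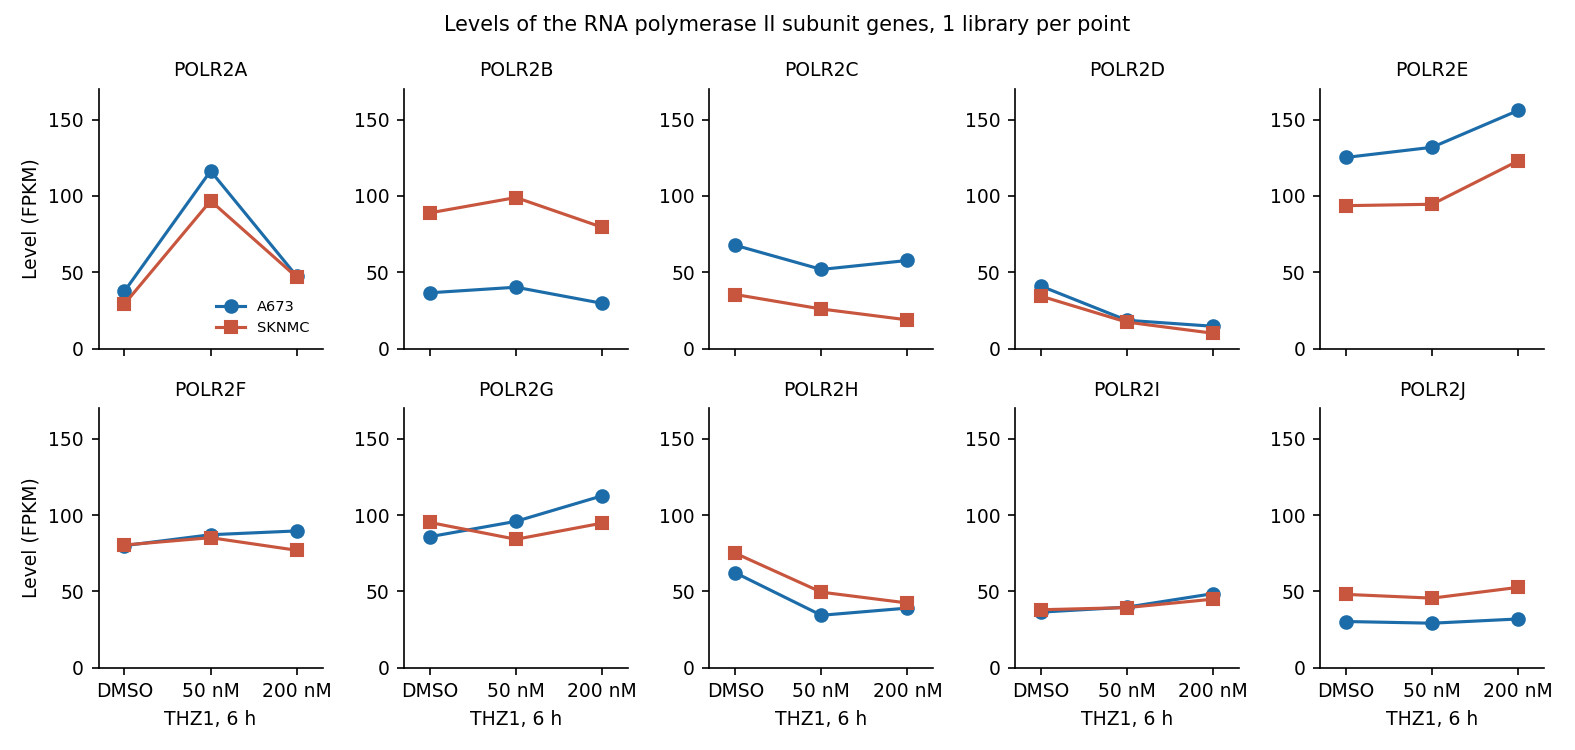
Levels of the 10 subunit genes in FPKM (vertical axis, the same from 0 in every panel) in DMSO, 50 nM and 200 nM THZ1, with circles for A673 and squares for SKNMC and 1 library per point. POLR2A peaked at 50 nM in both lines, at 116.3 and 96.8 FPKM, while POLR2D was lower at each higher dose and most other subunits stayed near their DMSO level.

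POLR2A, the catalytic subunit, stood furthest above its DMSO level at 50 nM in both lines and at 200 nM in SKNMC, while in A673 at 200 nM POLR2I and POLR2G stood above it. In A673, POLR2A was at 37.6 FPKM in DMSO, 116.3 FPKM at 50 nM and 47.4 FPKM at 200 nM. In SKNMC it was at 29.2, 96.8 and 46.8 FPKM. Both 50 nM libraries were thus above all 4 others, and the share of active genes separated in this way is not given here. The ratio of FPKM to DMSO at 50 nM was 3.10 in A673 and 3.31 in SKNMC, with log2 fold changes of 1.60 and 1.69. Only 4 of the 11066 active genes of A673 and 6 of the 11884 of SKNMC had a higher log2 fold change at this dose. The high dose gave 0.33 in A673 and 0.66 in SKNMC, and the A673 value was -0.04 when libraries were scaled by their ribosomal protein genes. POLR2A went from the 7th to the 2nd most abundant of the 10 subunits in A673 at 50 nM, and from the 10th to the 2nd in SKNMC. Relative to the median of the other 9, its level in A673 was 0.603 in DMSO, 2.90 at the low dose and 0.976 at the high dose. In SKNMC these ratios were 0.389, 1.95 and 0.887.

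POLR2B, the partner of POLR2A in the catalytic centre, did not show this peak. It was at 36.5, 40.2 and 29.6 FPKM in A673 and at 88.9, 98.9 and 79.4 FPKM in SKNMC, in DMSO, 50 nM and 200 nM. The log2 fold changes at 50 nM were 0.13 and 0.15, and those at 200 nM were -0.29 and -0.16. The order of the 3 libraries, highest at 50 nM and lowest at 200 nM, was the same in both lines, over a smaller range than for POLR2A. It did not hold under other scalings, since the ribosomal protein genes put both 50 nM values below 0 and the 75th percentile put both 200 nM values above 0. The ratio of POLR2A to POLR2B was 1.03 in A673 with DMSO, 2.90 at the low dose and 1.60 at the high dose, against 0.329, 0.978 and 0.589 in SKNMC.

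The stalk pair diverged. POLR2D was at 41.0, 18.5 and 14.6 FPKM in A673 and at 34.4, 17.3 and 10.0 FPKM in SKNMC. The 4 THZ1 libraries lay below both DMSO libraries, and the value was lower at 200 nM than at 50 nM in each line. The share of active genes separated in this way is not given here. The log2 fold changes of -1.10 and -1.43 in A673 and of -0.95 and -1.68 in SKNMC were the lowest of the 10 genes in all 4 comparisons, and stayed below 0 under all scalings tried. Counted from the lowest log2 fold change, POLR2D ranked 1432nd and 1488th of the 11066 active genes in A673. In SKNMC POLR2D ranked 2083rd and 919th of 11884. POLR2G, its partner in the stalk, was at 85.9, 96.0 and 112.7 FPKM in A673 and at 95.2, 84.2 and 94.8 FPKM in SKNMC. The ratio of POLR2D to POLR2G in A673 was 0.477 in DMSO, 0.193 at the low dose and 0.130 at the high dose, and SKNMC had 0.361, 0.206 and 0.106.

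The assembly pair separated in SKNMC more than in A673. POLR2C was at 67.7, 51.8 and 57.7 FPKM in A673 and at 35.4, 25.9 and 18.8 FPKM in SKNMC. It was below its DMSO level in all 4 THZ1 libraries, by log2 fold changes of -0.38 and -0.23 in A673 and of -0.44 and -0.88 in SKNMC. Of these, that of A673 at 200 nM was above 0 when libraries were divided by their 75th percentile. Among active genes, 43.2% and 58.4% in A673 and 42.5% and 32.6% in SKNMC had values no higher than those of POLR2C. POLR2J was at 30.3, 29.2 and 32.0 FPKM in A673 and at 48.1, 45.7 and 52.7 FPKM in SKNMC, so that its log2 fold changes lay between -0.07 and 0.13. Near-identical copies of POLR2J exist, and reads of POLR2J, POLR2J2 and POLR2J3 could be split between them in counting, so the 3 levels are uncertain. POLR2J3 was listed at 1.97 to 5.89 FPKM and POLR2J2 at 0.379 FPKM or less.

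Of the subunits that all 3 polymerases use, POLR2H was below its DMSO level at both doses. It was at 62.3, 34.4 and 39.1 FPKM in A673 and at 75.1, 49.6 and 42.5 FPKM in SKNMC. Both DMSO libraries were above the 4 THZ1 libraries, and the share of active genes separated in this way is not given here. The log2 fold changes of POLR2H were -0.84 and -0.66 in A673 and -0.59 and -0.81 in SKNMC, and they stayed below 0 under all scalings tried. POLR2H lies on the same strand as EIF2B5 and wholly within its listed span, and EIF2B5, a translation factor gene, was at 38.0, 25.8 and 25.1 FPKM in A673 and at 36.6, 28.2 and 26.4 FPKM in SKNMC. Whether reads were shared between the 2 genes was not tested.

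POLR2E was the most abundant subunit in 4 of the 6 libraries and was at 125.2, 131.8 and 156.0 FPKM in A673 and at 93.6, 94.5 and 122.9 FPKM in SKNMC. Both 200 nM libraries were above the other 2 of their line, with log2 fold changes of 0.32 and 0.39. POLR2F was nearly level, at 80.0, 87.2 and 89.7 FPKM in A673 and at 80.5, 85.3 and 77.0 FPKM in SKNMC. Outside the shared group, POLR2I was at 36.5, 39.7 and 48.6 FPKM in A673 and at 38.0, 39.5 and 45.0 FPKM in SKNMC, which gave log2 fold changes of 0.40 and 0.24 at 200 nM. POLR2I overlaps TBCB on the other strand over 1059 bp, and TBCB was at 75.4, 93.0 and 108.8 FPKM in A673 and at 54.5, 58.3 and 63.0 FPKM in SKNMC. Whether the counting used strand is not given in the sources used here, so the reads of such a pair cannot be told apart. Dividing by the ribosomal protein genes put the 200 nM values of POLR2E in both lines and of POLR2I in SKNMC below 0.

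FPKM is a share of the library, and the libraries themselves shifted. Active genes had a median log2 fold change of -0.27 in A673 at the low dose and -0.39 at the high dose, while SKNMC had -0.32 and -0.55. The median of the 10 subunits was 0.10 and 0.12 in A673 and -0.03 in both SKNMC comparisons, so it lay above the median of active genes in all 4. Its sign depends on the scaling: dividing by ribosomal protein genes gave medians of -0.13 and -0.25 in A673, while dividing by the 75th percentile gave 0.24 and 0.50 in SKNMC. Summed over the 9 subunits other than POLR2A, the level was 565.4, 528.9 and 580.0 FPKM in A673 and 589.1, 540.8 and 543.1 FPKM in SKNMC. In bulk RNA, fewer expressing cells and less RNA per cell cannot be told apart.

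**Figure D2:**
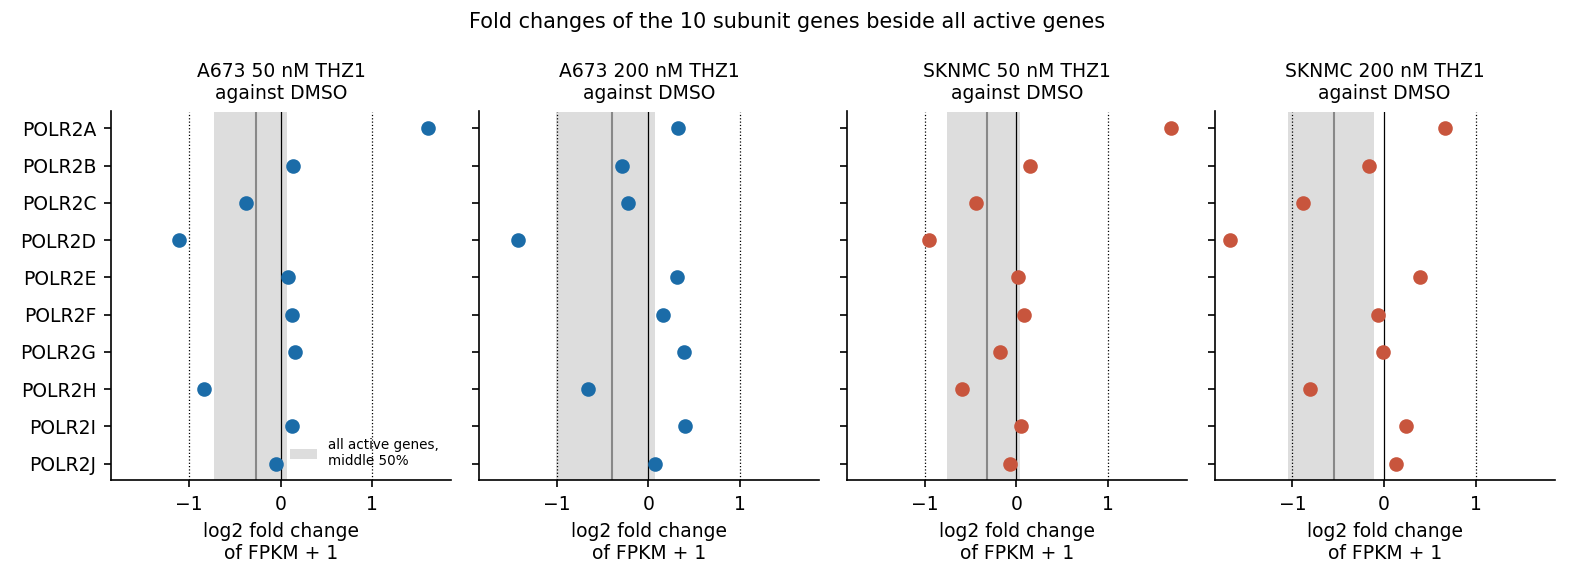
Log2 fold change of FPKM + 1 (horizontal axis) of the 10 subunit genes in the 4 comparisons of THZ1 with DMSO, 1 library against 1. The grey band holds the middle 50% of active genes with their median as a grey line, and dotted lines mark 2-fold; POLR2A stood at 1.60 and 1.69 at 50 nM, to the right of every other subunit, and POLR2D was the lowest in each panel.

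Counted at 1.5-fold in A673 at 50 nM, POLR2A alone was higher, where 1.78% of active genes were, and POLR2D and POLR2H were lower, where 31.8% were. At 2-fold, POLR2A was higher (0.343% of active genes) and POLR2D lower (15.8%). At 200 nM in A673, none of the 10 was higher by 1.5-fold (1.68% of active genes) or by 2-fold (0.127%). POLR2D and POLR2H were lower by 1.5-fold (41.1%), and POLR2D also by 2-fold (25.2%). The SKNMC library at 50 nM had POLR2A higher by 1.5-fold (2.42%) and by 2-fold (0.471%), and POLR2D and POLR2H lower by 1.5-fold (33.5%). No subunit was lower by 2-fold there, against 15.7% of active genes, and POLR2D had a value of -0.95. At 200 nM in SKNMC, POLR2A was higher by 1.5-fold (2.79%) and none by 2-fold (0.454%). POLR2C, POLR2D and POLR2H were lower by 1.5-fold (48.0%), and POLR2D by 2-fold (27.2%). Between 2 and 3 of the 10 subunits were thus lower by 1.5-fold in each comparison, and between 1 and 5 under the other scalings. Those scalings shift all genes, and the shares of active genes under them are not given here. The DMSO library of a line served both of its doses.

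The 2 lines were then fitted together with limma on log2 FPKM + 1, with dose and with the line as a block, over 10565 genes active in both lines, an analysis added after the values were seen. It leaves 2 residual degrees of freedom per gene, so its p-values rest largely on the spread pooled over genes, and that spread is the disagreement between the lines, not between cultures. At 50 nM, POLR2A was higher by 1.65 ± 0.14 (log2, SE, adjusted p = 1.1e-05), the 1 subunit higher where 5.09% of genes were. POLR2D was lower, at -1.03 ± 0.16 (adjusted p = 0.00038), as was POLR2H, at -0.71 ± 0.14 (adjusted p = 0.0018), where 38.5% of genes were. At 200 nM, POLR2D (-1.55 ± 0.16, adjusted p = 1.1e-05), POLR2H (-0.73 ± 0.14, adjusted p = 0.00094) and POLR2C (-0.55 ± 0.17, adjusted p = 0.016) were lower, where 52.7% of genes were. POLR2A (0.49 ± 0.14, adjusted p = 0.0085) and POLR2E (0.35 ± 0.11, adjusted p = 0.019) were higher at that dose, where 6.08% of genes were. Between the doses, POLR2A was lower at 200 nM, at -1.16 ± 0.14 (adjusted p = 0.00015), as was POLR2D, at -0.53 ± 0.16 (adjusted p = 0.032), where 23.2% of genes were. In limma 0 subunits were higher between the doses, where 3.38% of genes were. POLR2B, at -0.37 ± 0.13 (unadjusted p = 0.015, adjusted p = 0.053 in limma), and POLR2E, at 0.31 ± 0.11 (unadjusted p = 0.020, adjusted p = 0.067), did not pass. Adjusted p-values are by Benjamini-Hochberg over the genes fitted.

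POLR2A at 50 nM, POLR2A between the doses, and POLR2D at both doses against DMSO kept their call under every scaling. Without each library in turn, POLR2A was at 1.544 to 1.755 at 50 nM and at -1.30 to -1.01 between the doses. In these fits POLR2D was at -1.17 to -0.89 at 50 nM and at -1.72 to -1.39 at 200 nM. Each such fit leaves 1 library at 1 dose, so its p-values rest largely on the spread pooled over genes. They rest wholly on it in the fits without a DMSO or a 50 nM library. A call kept or lost there is no check on the spread of the gene itself. POLR2A at 200 nM lost its call with ribosomal protein scaling, without the SKNMC DMSO library (adjusted p = 0.075 in limma) and without the SKNMC 200 nM library (adjusted p = 0.053 in limma). POLR2H at 50 nM lost it without the A673 50 nM library (adjusted p = 0.13 in limma), and at 200 nM with the 75th percentile. POLR2C at 200 nM lost it with the 75th percentile (adjusted p = 0.47 in limma), without the SKNMC DMSO library (adjusted p = 0.12) and without the SKNMC 200 nM library (adjusted p = 0.17). POLR2E at 200 nM kept it in 1 of the 6 fits that leave out a library, the one without the A673 200 nM library, and had a log2 value of -0.12 with ribosomal protein scaling. POLR2D between the doses lost it with the 75th percentile (adjusted p = 0.068 in limma) and without either 50 nM library or the SKNMC 200 nM library, with adjusted p of up to 0.57. A subunit that did not pass is not thereby shown to be level.

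The 2 THZ1 doses could also be set against each other, without the DMSO library. POLR2A was lower at 200 nM than at 50 nM, with FPKM ratios of 0.407 in A673 and 0.483 in SKNMC and log2 fold changes of -1.28 and -1.03. It was the 1 subunit lower by 2-fold in each line, where 7.45% of active genes in A673 and 8.40% in SKNMC were. With the 75th percentile the SKNMC value was -0.78 and no longer passed 2-fold. None was higher by 2-fold, against 0.108% and 0.362%. POLR2B and POLR2D were also lower at the higher dose in both lines, by log2 fold changes of -0.43 and -0.32 in A673 and of -0.31 and -0.73 in SKNMC. POLR2E, POLR2G, POLR2I and POLR2J were higher in both lines, by 0.13 to 0.38, although dividing by the ribosomal protein genes turned POLR2J in A673 and POLR2G, POLR2I and POLR2J in SKNMC below 0.

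None of the 4 other active genes named for RNAPII was higher or lower by 2-fold in any comparison with DMSO. The shares of active genes lower by 2-fold were 15.8% and 25.2% in A673 and 15.7% and 27.2% in SKNMC. Those higher by 2-fold were 0.127% to 0.471%. With so few genes, a count of 0 says little. POLR2K (RPB12) and POLR2L (RPB10), the other 2 subunits of the enzyme and both shared with the other polymerases, were measured as well. POLR2K was at 54.2, 60.3 and 54.4 FPKM in A673 and at 69.2, 70.1 and 67.1 FPKM in SKNMC. POLR2L was at 87.4, 105.6 and 115.1 FPKM in A673 and at 144.7, 162.0 and 188.2 FPKM in SKNMC, in dose order in both lines. POLR2M, which encodes a factor that binds RNAPII and is no core subunit, was at 29.8, 18.1 and 15.6 FPKM in A673 and at 20.3, 15.4 and 12.6 FPKM in SKNMC. POLR2J4 is not analysed here.

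Genes of the other polymerases lay lower. Of 11 genes for RNA polymerase III, 7 passed 2-fold downward at each dose in A673, while in SKNMC 5 did at the low dose and 9 at the high dose, with median log2 fold changes of -1.12, -1.40, -0.94 and -1.24. The shares of the list were 63.6% and 63.6% in A673 and 45.5% and 81.8% in SKNMC, beside 15.8%, 25.2%, 15.7% and 27.2% of active genes. POLR3C, POLR3F, POLR3D and POLR3A had the largest mean changes among them. POLR3C was at 20.2, 5.34 and 4.78 FPKM in A673 and at 21.3, 4.99 and 4.76 FPKM in SKNMC. POLR3A, which encodes the catalytic subunit, was at 8.20, 2.61 and 2.04 FPKM in A673 and at 5.95, 2.24 and 2.04 FPKM in SKNMC, with no peak at 50 nM. Of 8 genes for polymerase I, including POLR1C and POLR1D that polymerase III shares, 3 and 6 were lower by 2-fold in A673 and 1 and 5 in SKNMC, with medians of -0.96, -1.61, -0.52 and -1.22. These are shares of 37.5%, 75%, 12.5% and 62.5%, of which that of SKNMC at the low dose is below the share of active genes. ZNRD1 was lowest of these on average, at 20.1, 4.97 and 3.48 FPKM in A673 and at 28.2, 8.71 and 5.52 FPKM in SKNMC. POLR1B, the second largest subunit, was at 29.0, 14.4 and 5.13 FPKM in A673 and at 27.0, 22.1 and 7.20 FPKM in SKNMC. CD3EAP had log2 fold changes of -1.39 and -1.83 in A673 and of -0.91 and -1.73 in SKNMC, and POLR1E had -1.36 and -1.43, and -0.93 and -1.21. POLR3F had -1.39 and -1.59, and -1.32 and -1.67, and POLR3D had -1.82 and -1.42, and -1.47 and -1.24. The medians of both lists lay below that of active genes in all 4 comparisons, and that of the RNAPII subunits above it. The list medians of polymerases I and III stayed below 0 under all scalings tried.

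**Figure D3:**
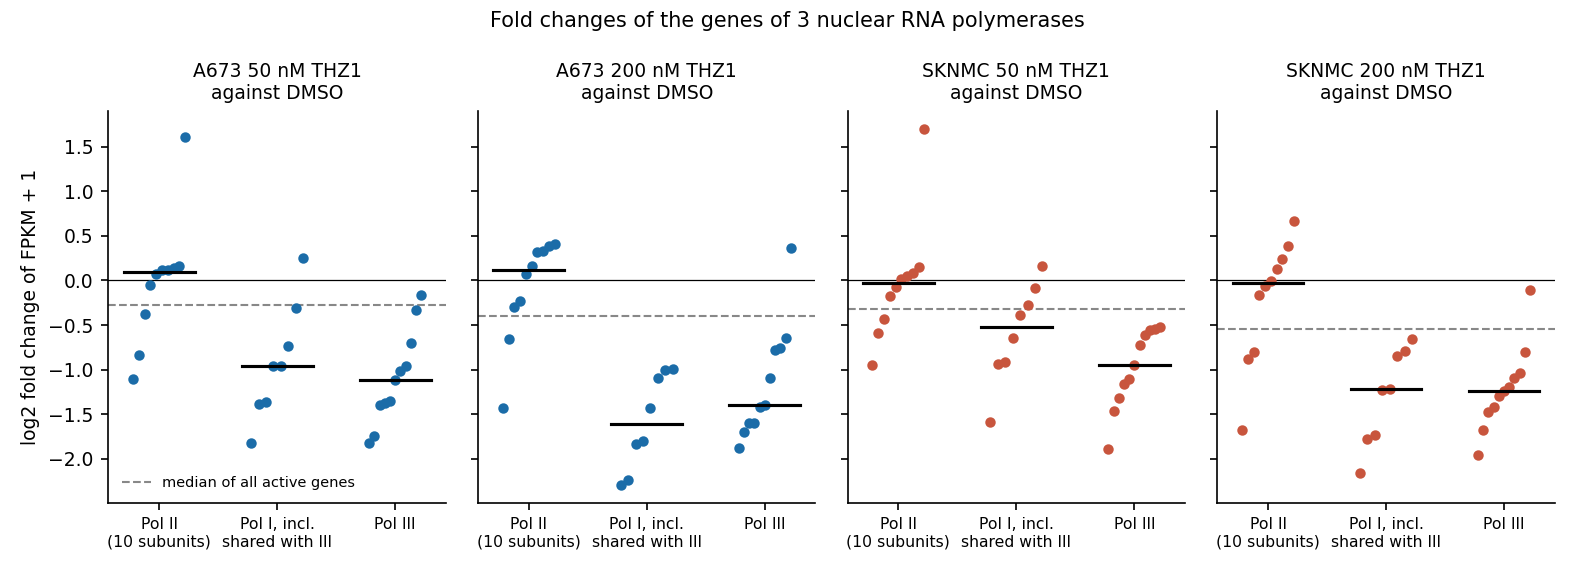
Log2 fold change of FPKM + 1 (vertical axis) of single genes in 3 lists for each comparison of THZ1 with DMSO, with the median of a list as a black bar and the median of all active genes as a dashed line. The bars for polymerases I and III lie below the dashed line in each panel, and the bar for the 10 RNAPII subunits lies near 0, between -0.03 and 0.12.

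Factors that assemble RNAPII and carry it to the nucleus were uneven. Of 16 such genes, 4 at the low dose and 2 at the high dose were lower by 2-fold in A673, and 2 and 4 in SKNMC. Medians were -0.19, -0.04, -0.43 and -0.46. None was higher by 1.5-fold, beside 1.78% and 1.68% of active genes in A673 and 2.42% and 2.79% in SKNMC. The shares lower by 2-fold were 25% and 12.5% in A673 and 12.5% and 25% in SKNMC, against 15.8%, 25.2%, 15.7% and 27.2% of active genes, so that the list exceeded them only at the low dose in A673. The 75th percentile turned both A673 medians and that of SKNMC at 200 nM above 0. GPN2 was at 16.5, 5.83 and 5.01 FPKM in A673 and at 13.6, 6.39 and 5.63 FPKM in SKNMC. RPAP2, which binds RNAPII on its way to the nucleus and is also a CTD phosphatase, had log2 fold changes of -1.12 and -1.44 in A673 and of -0.78 and -1.30 in SKNMC. RPAP1 was lower at 50 nM than at 200 nM, with -1.02 and -0.20 in A673 and -1.25 and -0.55 in SKNMC, as was WDR92, with -1.23 and -0.65, and -1.43 and -1.13.

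Some genes for CTD phosphatases and CTD-binding proteins lay on different sides of DMSO at the 2 doses. Of 13 such genes, 5 were higher by 1.5-fold at 50 nM in A673 and 2 in SKNMC. At that dose 3 in A673 and 2 in SKNMC were lower by 1.5-fold, against 31.8% and 33.5% of active genes. At 200 nM none was higher by 1.5-fold, against 1.68% and 2.79% of active genes, while 5 in A673 and 4 in SKNMC were lower by 2-fold. The share of active genes higher by 1.5-fold at 50 nM was 1.78% in A673 and 2.42% in SKNMC, and the shares lower by 2-fold at 200 nM were 38.5% and 30.8% of the list against 25.2% and 27.2% of active genes. Their medians were 0.41 in A673 and 0.01 in SKNMC at the low dose, and -0.63 and -0.87 at the high dose, and the ribosomal protein genes turned that of SKNMC at the low dose below 0. RPRD2, which binds the CTD, was at 10.9, 20.2 and 4.65 FPKM in A673 and at 17.4, 28.4 and 7.12 FPKM in SKNMC, highest at 50 nM and lowest at 200 nM in each. The other genes higher by 1.5-fold in A673, named after their values were seen, were RPRD1B, PCF11, SCAF4 and SCAF8. In SKNMC at 50 nM, PCF11 was below DMSO, with a log2 fold change of -0.13. SSU72 and CTDSP1, also named after their values were seen, were lower by 1.5-fold at 50 nM in both lines. Their log2 fold changes were -0.73 and -1.39 in A673, and -1.07 and -0.87 in SKNMC. SCAF8 was at 14.7, 26.4 and 6.45 FPKM in A673 and at 20.5, 30.6 and 10.2 FPKM in SKNMC. SCAF4, whose product like that of SCAF8 binds the CTD, was at 13.5, 26.6 and 8.29 FPKM in A673 and at 18.5, 32.3 and 14.97 FPKM in SKNMC. At 200 nM RPRD2, SCAF8 and SCAF4 were below DMSO in both lines, and POLR2A was above it in FPKM as deposited, although not in A673 with ribosomal protein scaling. The CTD phosphatase gene CTDP1 was lower at each dose, at 8.01, 4.08 and 1.47 FPKM in A673 and at 6.51, 5.19 and 2.36 FPKM in SKNMC. CTDSP2, another CTD phosphatase gene, was at 54.3, 41.4 and 21.9 FPKM in A673 and at 70.3, 59.6 and 32.3 FPKM in SKNMC.

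**Figure D4:**
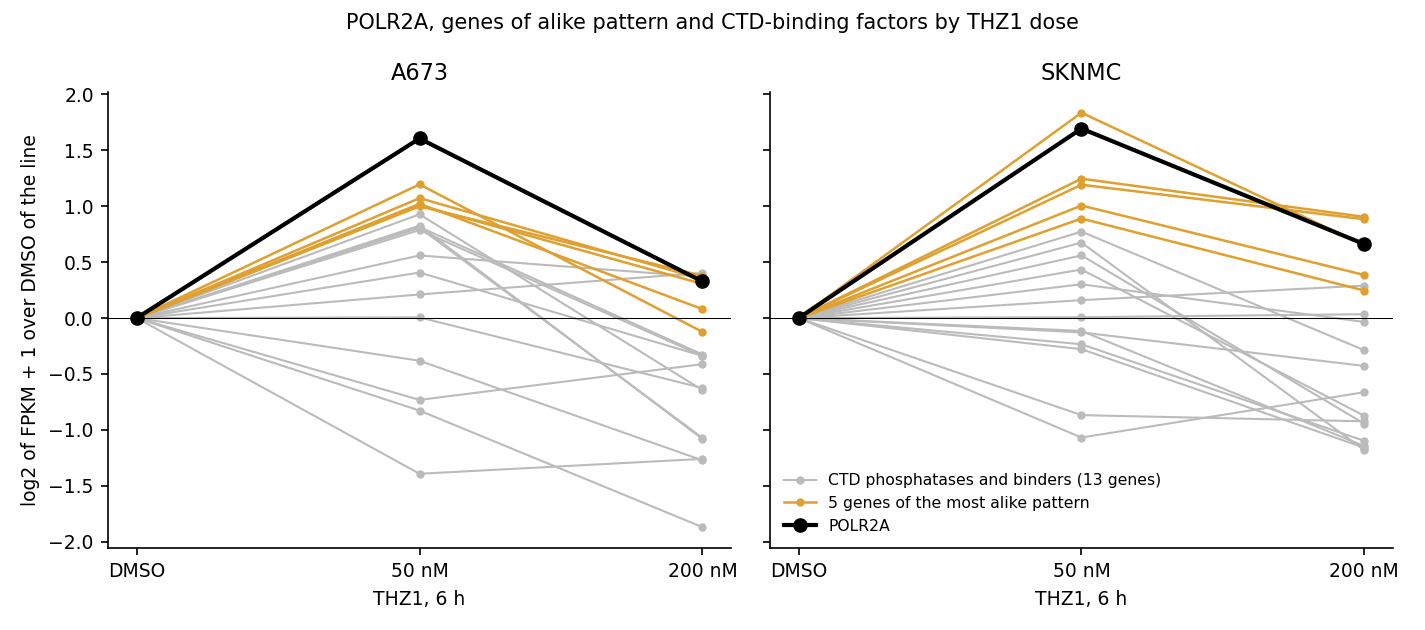
Log2 ratio of FPKM + 1 to the DMSO library of the line (vertical axis) by THZ1 dose (evenly spaced categories), with 1 library per point, for POLR2A (black), the 5 genes whose pattern was most alike (yellow) and 13 genes for CTD phosphatases and binders (grey). POLR2A was at 1.60 and 1.69 at 50 nM and at 0.33 and 0.66 at 200 nM.

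Of 10 elongation factors that travel with RNAPII, 1 was higher by 1.5-fold at 50 nM in A673 and none in SKNMC. The shares of active genes higher by as much were 1.78% and 2.42%. None was higher or lower by 2-fold at that dose, while 15.8% and 15.7% of active genes were lower and 0.343% and 0.471% higher. The gene higher in A673 was SUPT5H, named after its values were seen, which encodes a subunit of the pausing and elongation factor DSIF. It was highest at 50 nM in both lines, at 38.3, 62.7 and 46.8 FPKM in A673 and at 36.8, 47.8 and 40.5 FPKM in SKNMC. At the high dose 2 of the 10 were lower by 2-fold in A673 and 1 in SKNMC, or 20.0% and 10.0%, below the 25.2% and 27.2% of active genes. Of 15 genes whose products ubiquitinate POLR2A protein or act with those that do, none passed 2-fold at 50 nM, beside 15.8% and 15.7% of active genes lower. The high dose had 2 lower in A673 and 4 in SKNMC, which at 13.3% and 26.7% are no larger shares than those of active genes. The medians of both lists were between -0.15 and -0.05 at the low dose, where the 75th percentile turned them above 0, and between -0.57 and -0.41 at the high dose, where it turned only that of the elongation factors in SKNMC above 0. CUL3, a ubiquitin ligase scaffold, was at 47.2, 46.9 and 21.1 FPKM in A673 and at 53.9, 59.2 and 17.7 FPKM in SKNMC. USP7, a deubiquitinase, was at 58.1, 62.2 and 27.6 FPKM in A673 and at 47.9, 56.4 and 23.4 FPKM in SKNMC.

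The genes with the pattern most like that of POLR2A were NXF1, ARGLU1, C1orf63, PAXBP1 and MSL2, by the distance between log2 levels over the 6 libraries, centred within each line, among 5985 genes that exceeded 10 FPKM with DMSO in each line and were listed above 0 everywhere. The distances were 0.373 for NXF1 and 0.641 to 0.768 for the others. NXF1, the main export receptor of messenger RNA, was at 36.9, 85.8 and 33.8 FPKM in A673 and at 35.2, 128.3 and 55.9 FPKM in SKNMC. POLR2B had much closer neighbours, at distances of 0.0444 (DCTN4), 0.0590 (RC3H2), 0.0656 (LRPPRC), 0.0781 (ATP6V1A) and 0.0908 (PCM1). The nearest listed gene on either side of POLR2A did not share its peak. ZBTB4, on the opposite strand and separated from POLR2A by 101 bp, was at 6.44, 1.26 and 1.52 FPKM in A673 and at 4.64, 1.35 and 1.79 FPKM in SKNMC. TNFSF12, which starts 34273 bp beyond POLR2A, was at 0.237 FPKM or less in all 6 libraries.

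Facts of the libraries bear on all these values. All 7 Ewing sarcoma markers (CD99, NKX2-2, NR0B1, STEAP1, FLI1, EWSR1 and PAX7) were above 1 FPKM in each of the 6 libraries, with a summed level of 923.3, 937.0 and 999.0 FPKM in A673 and of 786.0, 679.5 and 573.3 FPKM in SKNMC. CD99 held most of this sum in A673, at 504.4 to 762.7 FPKM. The median log2 fold change of the 7 markers was -0.60 and -1.18 in A673 and -0.80 and -1.53 in SKNMC. Those lower by 2-fold numbered 3 and 4 in A673 and 3 and 4 in SKNMC, or 42.9% and 57.1% in each line. The shares of active genes lower by 2-fold were 15.8% and 25.2% in A673 and 15.7% and 27.2% in SKNMC. Of the markers, FLI1 was at 31.5, 14.95 and 4.26 FPKM in A673 and at 27.3, 15.2 and 4.56 FPKM in SKNMC. The part of these changes in the values of the subunits was not tested. The summed level of 5 markers of other cell types was 0.0639 to 0.112 FPKM in A673 and 8.40 to 14.0 FPKM in SKNMC, where PTPRC, a leukocyte gene, was at 7.90 to 13.1 FPKM. MYOG was listed at 0 in all 6 libraries, CDH5 was at 0.127 FPKM or less, MYOD1 at 0.0918 or less and EPCAM at 0.826 or less. The part of PTPRC-expressing cells in the SKNMC values was not tested. The summed FPKM of listed genes ran from 451872 to 462997. The number of reads per library is unknown, so no counting interval can be given.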

How the data were processed

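RNA was sequenced from A673 and SKNMC cells in 6 conditions, with 1 library each. Libraries were assigned to groups by their titles, which spell the second line SKMNC. The authors aligned 100-bp paired-end reads of TruSeq libraries to hg19 with STAR and the Ensembl 75 annotation, and deposited FPKM values for 20311 protein-coding and 7109 lincRNA genes. The paper's methods name StringTie for these values, whereas the submitters' processing notes list Cufflinks. The table title speaks of average expression, and each column was treated as 1 library. The 4 columns of log2 fold changes that the authors deposited were not used.

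Changes were log2 ratios of FPKM + 1, computed with Python 3.11.15 and pandas 2.3.3. Where a symbol occurred more than once, the row of highest mean FPKM was kept. No test within a line was possible. A fit over both lines with the line as a block (limma 3.58.1 in R 4.3.3, trended prior, adjusted p under 0.05) was added after the data were seen. The steps were tested on simulated data.

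Named were all 10 subunits and, in other lists, at most 4 genes changed by 2-fold in the same direction in both lines at 1 dose. The members and lists were chosen with earlier results of these data known. Alternatives were a pseudocount of 0.1, scaling to a common sum, to the 75th percentile of 10565 genes or to the median of the ribosomal protein genes, other fold thresholds, the 12 subunits of the enzyme or 9 without POLR2A, and no filter on low values.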

Additional observations from a re-analysis of the deposited data

Results flagged for a closer look

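The log2 fold changes of POLR2G at both doses and of POLR2F at 200 nM had opposite signs in the 2 cell lines, with 1 library in each condition, and the difference was not tested. At 50 nM THZ1 the log2 fold change of POLR2G was 0.16 in A673 and -0.18 in SKNMC. The high dose gave POLR2G 0.39 in A673 against -0.0066 in SKNMC, and POLR2F 0.16 against -0.063. The SKNMC value of POLR2G at 200 nM was near 0 and was 0.026 with a common sum, and POLR2F at 50 nM was above 0 in both lines, at 0.12 and 0.08. Of these values, only that of POLR2G in A673 at 200 nM kept its sign under every scaling tried.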

How the results depend on the processing

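Dividing by the 75th percentile moved the median log2 fold change of active genes up by 0.21 to 0.45, and dividing by the ribosomal protein genes moved it by -0.22 to -0.45. The 75th percentile gave the 10 subunits medians of 0.33 (low dose) and 0.45 (high dose) in A673, and of 0.24 and 0.50 in SKNMC. With the ribosomal protein genes it was -0.13 and -0.25 in A673, and -0.38 and -0.60 in SKNMC. With POLR2K and POLR2L added, the median in SKNMC at 50 nM was 0.015.

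With the 75th percentile, 0 subunits were lower by 2-fold in A673 at 50 nM, and at 200 nM 4 were higher and 1 lower by 1.5-fold. In SKNMC 1 was lower by 1.5-fold at 50 nM, and at 200 nM 4 were higher by 1.5-fold, 1 higher by 2-fold and 1 lower by 1.5-fold, and 0 were lower by 2-fold at 200 nM than at 50 nM. This scaling shifted the median log2 fold change of active genes against DMSO by 0.21 to 0.45. Shares of active genes under it are not given here.

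With the ribosomal protein genes, 2 subunits were lower by 2-fold in A673 at 50 nM, and at 200 nM 4 were lower by 1.5-fold and 2 by 2-fold. In SKNMC 1 was lower by 2-fold at 50 nM, and at 200 nM 0 were higher by 1.5-fold, 5 lower by 1.5-fold and 3 lower by 2-fold. Between the lines in DMSO, 1 was higher and 0 were lower by 2-fold in A673. Active genes had their median log2 fold change against DMSO shifted by -0.22 to -0.45 under this scaling, and their shares under it are not given here.

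With a common sum, 1 subunit was lower by 1.5-fold in SKNMC at 50 nM. With a 2-fold in place of a 1.5-fold threshold, 1 was lower at each dose in A673, 0 were lower at 50 nM in SKNMC, and at 200 nM 0 were higher and 1 lower. With the lowest threshold tried, 3 were higher in A673 and 2 in SKNMC at 200 nM.

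Without a filter on low values, the background shares lower by 2-fold were 9.53% and 15.1% in A673, and 9.69% and 16.6% in SKNMC. A pseudocount of 0.1 moved none of the 70 log2 values of single subunits by more than 0.1, and neither did a common sum, while the 75th percentile moved 54 and the ribosomal protein genes all 70. The cause of these shifts was not tested, and unknown depth limits every low value.

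The labels give no replicate numbers that pair libraries within a line. The fit over both lines, chosen after the data were seen, therefore pairs them by cell line, as a block. With the 75th percentile, 5 subunits were higher at 50 nM, where 17.1% of genes were. At 200 nM 6 were higher and 1 lower, where 23.4% and 33.2% of genes were. Between the doses 3 were higher and 1 lower, where 14.7% and 17.2% of genes were. With the ribosomal protein genes, 0 were higher and 5 lower at 200 nM, where 0.36% and 77.75% of genes were. A common sum gave 3 higher at 200 nM, where 6.73% of genes were, and 3 lower between the doses, where 23.5% were. Leaving out each library in turn leaves 1 residual degree of freedom, and effect sizes from these fits are given above for POLR2A and POLR2D.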
